A study of Mus musculus with 16 samples.

Results

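The genes described here are 10 genes used as markers of intestinal macrophages, C1qa, C1qb, C1qc, Cd68, Csf1r, Cd163, Mrc1, Lyz2, Timd4 and Fcgr1, measured in the colon of mouse pups delivered by C-section or vaginally. They were taken by name, 10 of the 36711 genes on the array, and all 10 had a probe well above background on all 16 arrays. Colon RNA of 16 RjOrl:SWISS pups, an outbred stock, was hybridised at weaning (3 weeks of age) on 1-colour Agilent mouse arrays, with 1 array per pup. The 8 CSD pups (4 females and 4 males) were taken by hysterectomy and reared by foster mothers that had delivered vaginally. The 8 VD pups (2 females and 6 males) were delivered vaginally, and mothers of this group exchanged their litters, so that pups of both groups were reared by a female other than their own mother. The CSD pups came from the litters of mothers 3 and 4 (4 pups each) and the VD pups from those of mothers 5 (5 pups) and 6 (3 pups, all males), so delivery mode varied only between litters. RNA was isolated from colon samples without a cell sort being described, and the layers of the gut wall they held are not given in the sources used here. The 10 epithelial marker genes examined below were above background on all arrays, as were the 10 macrophage genes. Both slides carried 4 pups of either group. On single arrays, 58.7% to 64.9% of the non-control spots were well above background.

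Macrophages of the gut wall are tissue phagocytes that are largely renewed from blood monocytes, although some long-lived cells persist near nerves, vessels and the crypt base. They take up bacteria and dying cells, and they depend on signals through the receptor encoded by Csf1r. The weeks around weaning are known as a time in which the microbiota shapes this population. C1qa, C1qb and C1qc encode the chains of C1q, the recognition protein of the classical complement pathway, which macrophages are a main source of. Cd68 encodes a lysosomal membrane glycoprotein, Lyz2 the lysozyme of myeloid cells, Mrc1 the mannose receptor, Cd163 the receptor for haemoglobin bound to haptoglobin, Timd4 a receptor for the phosphatidylserine of dying cells, and Fcgr1 the high-affinity receptor for IgG. In RNA of bulk tissue, fewer cells of a type and less RNA per cell cannot be told apart. Mrc1 is also expressed by endothelial cells of lymphatic vessels, and Lyz2 by neutrophils, so these names mark macrophages less strictly than C1q does.

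The array read each gene through probes of 60 bases. The probes of C1qa, C1qb and one of the 2 probes of Lyz2 are given here as they stand in the scanner output, since the C1q genes and Lyz2 carry most of what follows. They map to the minus strand of mm9 by the positions that the scanner software gives, chr4:136452409-136452468 for C1qa, chr4:136436578-136436637 for C1qb and chr10:116719175-116719234 for Lyz2. No annotation of this build was used here, so the exon is not given.
C1qa: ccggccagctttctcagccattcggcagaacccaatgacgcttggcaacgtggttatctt
C1qb: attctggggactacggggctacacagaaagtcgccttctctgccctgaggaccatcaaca
Lyz2: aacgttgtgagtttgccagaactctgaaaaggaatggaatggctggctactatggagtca
In the gene table of GRCm38.p6 the 3 C1q genes are direct neighbours on chromosome 4 in the order C1qb, C1qc, C1qa, and Lyz2 lies next to its close relative Lyz1 on chromosome 10.

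Between delivery modes, 0 of the 10 macrophage genes passed the limma test (Benjamini-Hochberg adjusted p at 5%), which 1.25% of all genes did. The estimates of 7 genes were lower in CSD pups, C1qa, C1qb, C1qc, Cd68, Csf1r, Lyz2 and Timd4, and those of Cd163, Mrc1 and Fcgr1 were close to 0. The median log2 fold change (CSD minus VD, adjusted for sex; SE below is its standard error) was -0.20 over the 10 genes and 0.0029 over all genes, of which 48.3% were lower in CSD. An unadjusted p under 0.05 was found in 3 of the 10, C1qc, Cd68 and Lyz2, against 14.5% of all genes. The values of CSD and VD pups overlapped in all 10, while among genes measured on all arrays 0.493% had groups that did not overlap. Both CSD litter means lay below both VD litter means in 7 of the 10 genes, those with lower estimates, and in 20.3% of all genes.

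**Figure D1:**
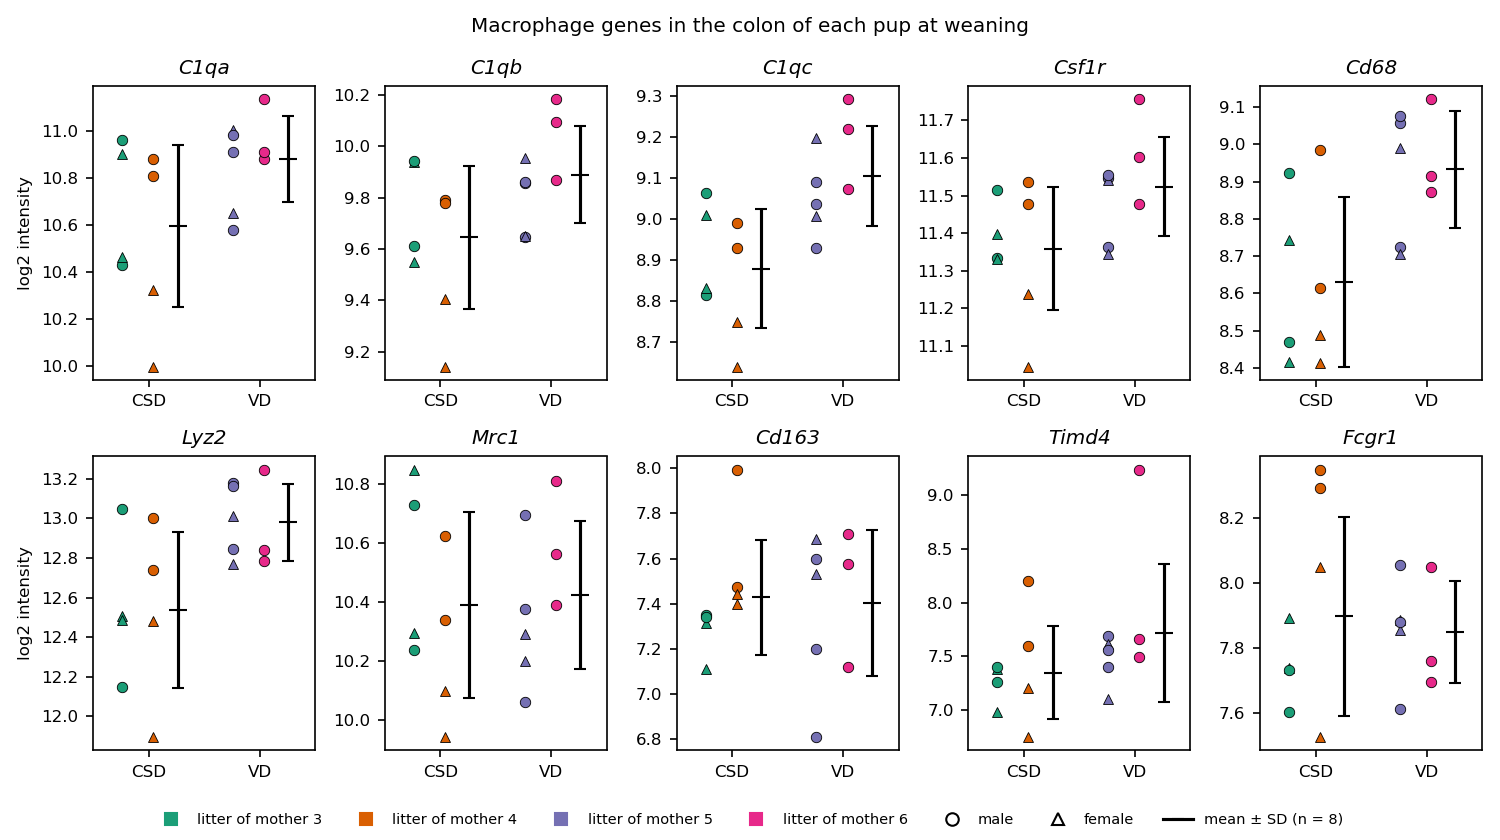
Log2 intensity of the 10 macrophage genes in each pup, by delivery mode, with colour for the litter, circles for males, triangles for females and the mean ± SD (n = 8) at the right of each group. CSD pup 2, a female of mother 4, was the lowest CSD pup in every panel but Cd163, and VD pup 6, a male of mother 6, was the highest VD pup in every panel but C1qc and Fcgr1. On the brighter C1qc probe alone VD pup 6 was the highest VD pup (12.42).

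The estimates of all 3 C1q genes were lower in CSD pups, and none passed the test. The log2 intensity of C1qa ranged from 9.997 to 10.96 in CSD pups (median 10.64) and from 10.58 to 11.13 in VD pups (median 10.91), with group means of 10.59 ± 0.34 and 10.88 ± 0.18 (SD, n = 8 each). That of C1qb ranged from 9.14 to 9.94 in CSD pups (median 9.69) and from 9.65 to 10.18 in VD pups (median 9.87). For both genes 4 CSD pups lay below every VD pup, and the others lay within the range of the VD group. The log2 fold changes were -0.23 for C1qa (SE 0.128, 95% interval -0.50 to 0.04, adjusted p = 0.443) and -0.20 for C1qb (SE 0.109, adjusted p = 0.442).

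C1qc was read by 2 probes, of which 1 was above background on 0 arrays, and the average of both is given first. Its log2 intensity ranged from 8.64 to 9.06 in CSD pups (median 8.88) and from 8.93 to 9.29 in VD pups (median 9.08). On this average, which the permutation test below also used, all 8 CSD pups lay below the median of the VD pups. On the brighter probe alone the highest CSD pup (12.221) lay above the VD median (12.201). The log2 fold change was -0.21 (SE 0.067, 95% interval -0.35 to -0.07, unadjusted p = 0.00703, adjusted p = 0.143), and an exact permutation test of the group means gave p = 0.00466 (two-sided, 12870 assignments, the smallest possible p being 0.000155, with litter and sex not taken into account). The brighter probe, above background on all 16 arrays, ranged from 11.30 to 12.22 in CSD pups and from 11.86 to 12.42 in VD pups, with a log2 fold change of -0.31 (SE 0.119, unadjusted p = 0.0185, adjusted p = 0.211 in a limma fit over 56366 probes, of which 1.64% were called).

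Csf1r and Cd68, the growth factor receptor and the lysosomal glycoprotein, also had lower estimates in CSD pups, and neither passed the test. Csf1r ranged from 11.05 to 11.54 in CSD pups (median 11.37) and from 11.34 to 11.76 in VD pups (median 11.54), and its log2 fold change was -0.12 (SE 0.065, 95% interval -0.26 to 0.01, adjusted p = 0.412). Cd68 ranged from 8.41 to 8.99 in CSD pups (median 8.55) and from 8.71 to 9.12 in VD pups (median 8.95). For Cd68, 5 CSD pups lay below every VD pup and 4 VD pups above every CSD pup. Its log2 fold change was -0.26 (SE 0.090, 95% interval -0.45 to -0.06, unadjusted p = 0.0120, adjusted p = 0.180), with an exact permutation p of 0.0113 (two-sided). The 3 probes of Cd68 gave -0.36, -0.26 and -0.15, and the 2 probes of Csf1r gave -0.21 and -0.04 on the same scale.

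Lyz2 ranged from 11.90 to 13.05 in CSD pups (median 12.50) and from 12.77 to 13.24 in VD pups (median 12.93), so that 6 of 8 CSD pups lay below every VD pup. The exceptions were CSD pups 6 and 9, both males, with values within the VD range. The log2 fold change was -0.37 (SE 0.142, 95% interval -0.67 to -0.07, unadjusted p = 0.0189, adjusted p = 0.220), the exact permutation p was 0.0113 (two-sided), and the 2 probes agreed in size at -0.38 and -0.36. Lyz1, the lysozyme gene of Paneth cells, had a log2 fold change of -0.34 (SE 0.153, adjusted p = 0.310), with group means of 13.34 in CSD and 13.74 in VD pups. Lyz1 and Lyz2 followed each other closely across pups (Pearson r = 0.974, Spearman rho = 0.932, 16 pups, permutation p = 1e-05 for both, the smallest that the permutations can give). The correlation was 0.951 without the 2 pups farthest from the median, and 0.986 and 0.988 within the slides. The 2 genes are near copies of each other, and signal shared between their probes was not tested.

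The scavenger and lectin receptors Mrc1 and Cd163 did not separate the groups. Mrc1 ranged from 9.94 to 10.85 in CSD pups (median 10.32) and from 10.06 to 10.81 in VD pups (median 10.38). Its log2 fold change was 0.02 with sex in the model (SE 0.135, 95% interval -0.27 to 0.30, adjusted p = 0.973), and the plain difference of the group means was -0.03. Cd163 was read mainly by 1 probe, above background on all arrays, which ranged from 7.35 to 9.67 in CSD pups (median 8.55) and from 7.53 to 9.13 in VD pups (median 8.61). That probe had a log2 fold change of -0.02 (SE 0.301, adjusted p = 0.989 over all probes). The average of both Cd163 probes gave 0.03 (SE 0.147, adjusted p = 0.958), but the dimmer probe was above background on 1 array of each group, and its spot was left out as an outlier in CSD pup 8, whose Cd163 value therefore rests on the brighter probe alone. Fitted by itself, the dimmer probe gave -0.13 (SE 0.098, adjusted p = 0.587), so each probe alone was below 0 while their average, which mixes 1 and 2 probes across pups, was above it. The sign for Cd163 and Mrc1 turned with the processing, Mrc1 also under another normalization (-0.0052 with cyclic loess), and the intervals allow a difference of about the size seen for C1qa in either direction.

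Timd4 and Fcgr1 are read by 1 probe each. Timd4 ranged from 6.75 to 8.20 in CSD pups (median 7.32) and from 7.11 to 9.24 in VD pups (median 7.59), with VD pup 6 standing well above the others of its group. Its log2 fold change was -0.25 with the widest interval of the 10, -0.77 to 0.27 (SE 0.245, adjusted p = 0.706), and -0.07 without VD pup 6. Fcgr1 ranged from 7.53 to 8.35 in CSD pups (median 7.82) and from 7.61 to 8.06 in VD pups (median 7.87). For Fcgr1, 2 CSD pups lay below every VD pup and 2 others, the males of mother 4, above every VD pup. Its log2 fold change was 0.07 (SE 0.121, 95% interval -0.18 to 0.33, adjusted p = 0.841).

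**Figure D2:**
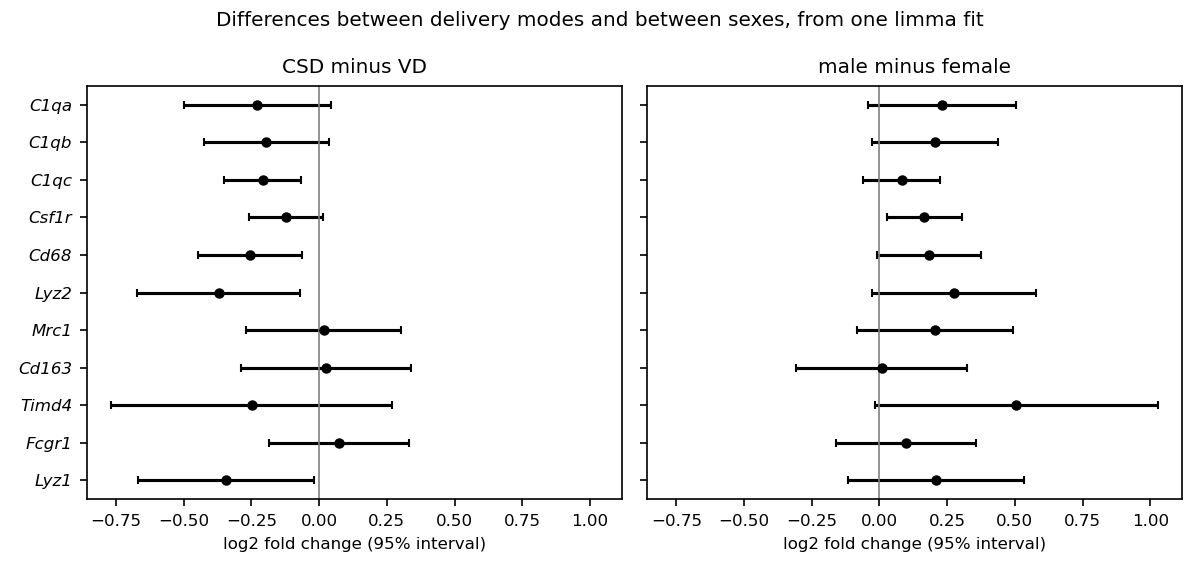
Log2 fold changes of the 10 genes and of Lyz1 with 95% intervals from a single limma fit over all genes, CSD minus VD at the left and male minus female at the right. At the left the intervals of C1qc, Cd68, Lyz2 and Lyz1 lie below 0, and at the right all estimates lie above 0, with only the interval of Csf1r clear of it.

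Sex was unevenly spread over the groups, with 6 males among the VD pups and 4 among the CSD pups. All 10 estimates were higher in males, with a median log2 fold change (male minus female) of 0.19 against 0.00271 over all genes. None of the 10 was called, against 0.0599% of all genes, and 1, Csf1r, had an unadjusted p under 0.05, as had 6.45% of all genes. Csf1r had a mean of 11.32 ± 0.17 in 6 females and 11.52 ± 0.12 in 10 males (SD), and its log2 fold change was 0.17 (SE 0.065, unadjusted p = 0.0216, adjusted p = 0.721 in limma). Within CSD pups the means of Csf1r were 11.25 in 4 females and 11.47 in 4 males, and within VD pups 11.44 in 2 females and 11.55 in 6 males. Timd4 had the largest estimate, 0.51 (SE 0.246, adjusted p = 0.785). Without sex in the model the adjusted p of C1qc for delivery mode was 0.0670 and that of Cd68 0.0862, and among males alone the median log2 fold change of the 10 genes was -0.13. The delivery by sex interaction called 0 of the 10 (0.00272% of all genes), and the interaction terms had unadjusted p of 0.0952 (Cd163) or more.

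The litters of 1 delivery mode were compared in the same way. Between the CSD litters (mother 4 minus mother 3) 0 of the 10 genes were called, against 0.0872% of all genes, and between the VD litters (mother 6 minus mother 5) 0 of the 10, against 0.874%. An unadjusted p under 0.05 was found for 0 of the 10 in either comparison, against 7.69% and 11.5% of all genes. Fcgr1 came nearest among the CSD litters, with a mean of 8.05 ± 0.38 in the litter of mother 4 and 7.74 ± 0.12 in that of mother 3 (SD, n = 4 each; log2 fold change 0.31, SE 0.150, adjusted p = 0.667). The litter of mother 4 held both the lowest and the highest CSD pup for Csf1r, Cd68, Timd4 and Fcgr1. The litter means of C1qa ran in the order 10.50 (mother 4), 10.69 (mother 3), 10.83 (mother 5) and 10.98 (mother 6), and neighbouring litters in that order overlapped.

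Correlations from pup to pup were computed for the 45 pairs of the 10 genes. All 45 pairs had a positive Pearson correlation over the 16 pups, from 0.07 to 0.95 with a median of 0.63, and 0.57 after the group means had been removed. In 26 pairs the permutation p, adjusted over the 45 pairs, was under 0.05 for both Pearson's r and Spearman's rho. Over all pairs of 20535 genes above background on every array, 50.5% were positive and 1.47% reached the median of the 45, values given as a description with no test. All pups share 1 normalization and the array of a pup carries every gene, so the pairs are not independent of each other. The permutations moved all pups freely, with litter, sex and delivery mode not taken into account. C1qa and C1qb had the highest correlation (r = 0.953, rho = 0.903, permutation p = 1e-05 and 3e-05, adjusted 6.43e-05 and 0.000225), and it was 0.888 without the 2 pups farthest from the median and 0.909 and 0.976 within the slides. C1qa and Csf1r, which lie on different chromosomes, had r = 0.944 (rho = 0.921, permutation p = 1e-05 and 2e-05, adjusted 6.43e-05 and 0.000225), 0.874 without the 2 farthest pups. Cd163 and Fcgr1 stood apart from the other 8 genes. The 17 pairs that include either of them had correlations up to 0.45 (median 0.30) with 0 adjusted p under 0.05, and the 28 pairs among the others ran from 0.43 to 0.95 (median 0.78) with 26. The brighter probe of Cd163 alone had correlations between 0.23 and 0.50 with the other genes. Within groups of 8 pups, the correlation of Lyz2 with C1qa, C1qb and C1qc was 0.86, 0.76 and 0.84 in CSD and 0.28, 0.17 and -0.04 in VD pups, a difference that was not tested. The correlations of C1qc use the average of both its probes, of which the dimmer was above background on 0 arrays. In VD pups the SD of that dimmer probe was 0.158, against 0.169 for the brighter one. Correlations of the brighter C1qc probe alone are not given here.

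**Figure D3:**
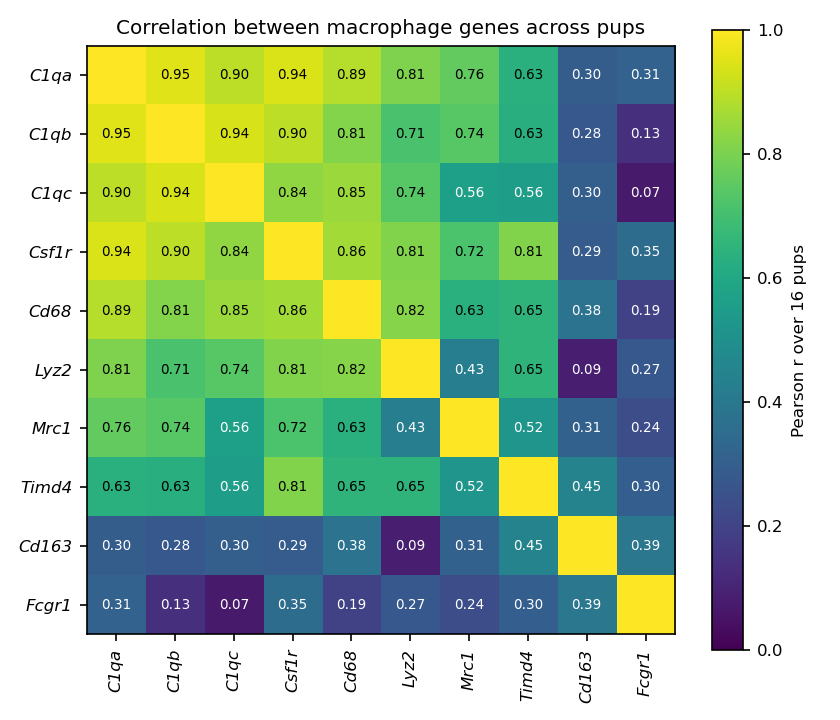
Pearson correlation between the 10 macrophage genes over the 16 pups, with the value written in each cell. The block of C1qa, C1qb, C1qc, Csf1r and Cd68 runs from 0.81 to 0.95, and Cd163 and Fcgr1 have values up to 0.45.

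Genes elsewhere on the array that followed the mean standardized value of the 10 most closely were Myo5a (r = 0.946), Fcer1g (0.944), Folr2 (0.941), Slc11a1 (0.934), Rab30 (0.933) and Aif1 (0.927), among 20526 genes with a probe above background on every array. For the mean of the 3 C1q genes they were Tyrobp (0.944), Fcer1g (0.942), Aif1 (0.937), Clec4a1 (0.936), Myo5a (0.919) and Sirpa (0.915). These are descriptions over 16 pups, chosen for their likeness. Folr2 encodes a folate receptor of resident macrophages, Slc11a1 a metal transporter of the phagosome, Tyrobp and Fcer1g signalling adaptors of myeloid receptors, and Sirpa the receptor for the CD47 signal. Fcer1g had a log2 fold change between delivery modes of -0.21 (SE 0.133, adjusted p = 0.524) and Folr2 one of -0.29 (SE 0.136, adjusted p = 0.339).

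Of 32 other macrophage genes, 24 were lower and 8 higher in CSD pups, 0 were called, 6 had an unadjusted p under 0.05, where 14.5% of all genes did, and the median log2 fold change was -0.06. The smallest p was that of the lectin receptor gene Clec10a, which had 8.48 in CSD and 8.01 in VD pups (log2 fold change 0.50, SE 0.165, adjusted p = 0.155). Aif1 (-0.26), Folr2 (-0.29), Gpnmb (-0.32) and Mgl2 (-0.23) were the 4 with an unadjusted p under 0.05 in the other direction. Adgre1, which encodes a surface receptor used to mark macrophages, had -0.06 (SE 0.084, adjusted p = 0.825) and Mertk, a receptor for dying cells, -0.0039 (adjusted p = 0.989). Of the 32 genes, 29 were above background on every array.

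**Figure D4:**
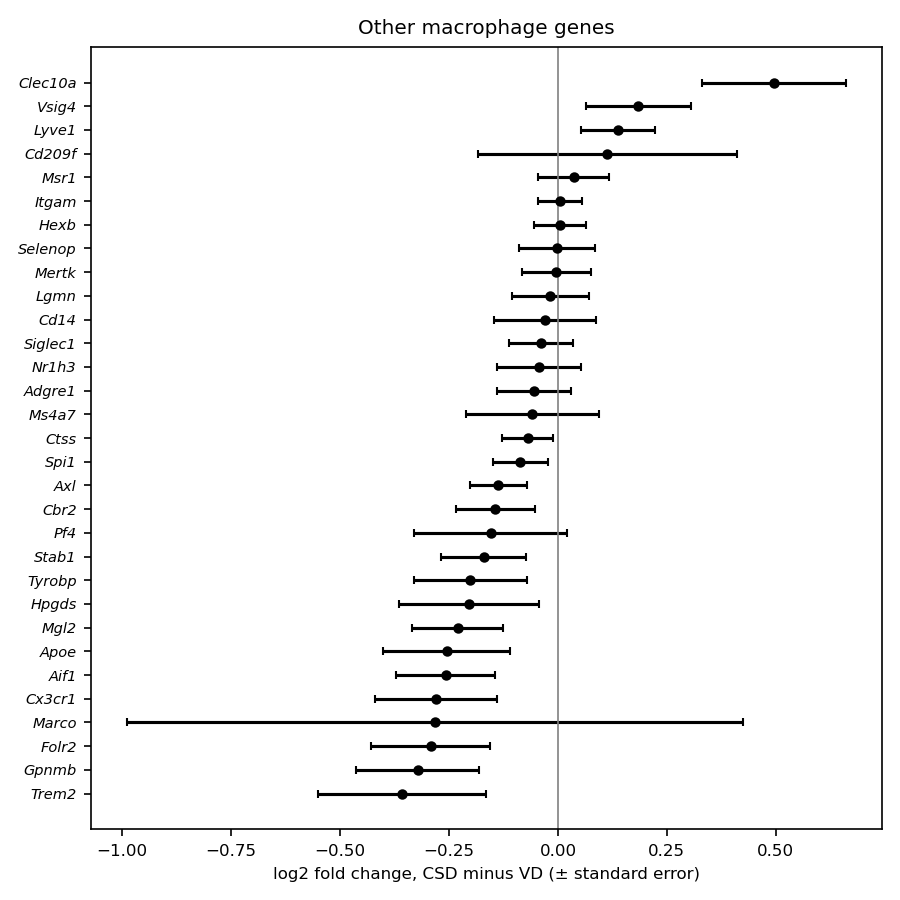
Log2 fold change (CSD minus VD) of other macrophage genes with its SE, in order of the estimate. Clec10a lies farthest to the right at 0.50, 24 genes lie to the left of 0, and Marco has the widest error.

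The partners of these genes were examined by role, with 0 genes called in each of the 6 lists, against 1.25% of all genes. In a list of 8 genes, made up of colony-stimulating factors, their receptors, Il34 and Spp1 (osteopontin), 5 were lower in CSD pups, and both ligands of the Csf1r receptor were among them. Csf1 had 8.67 in CSD and 8.85 in VD pups (log2 fold change -0.15, SE 0.055, adjusted p = 0.208) and Il34 9.44 and 9.63 (-0.21, SE 0.095, adjusted p = 0.305). Csf2 and Csf3 were above background on 0 arrays. In the list of 19 complement genes other than C1q, 15 were lower. The smallest p were those of Cfp, which encodes properdin (9.77 in CSD and 10.18 in VD pups, -0.36, adjusted p = 0.112), and Cd93 (-0.20, adjusted p = 0.291). C1s1, a protease of the C1 complex, had -0.12 (adjusted p = 0.458). Of 18 phagosome and lysosome genes 12 were lower, with Ctsd, the protease cathepsin D, at -0.15 (SE 0.040, adjusted p = 0.0737) and Ncf4, a subunit of the phagocyte oxidase, at -0.44 (SE 0.132, adjusted p = 0.117). Among 13 scavenger and lectin receptor genes 10 were lower, yet 1 of the 2 with the smallest p was higher (Colec12, 0.17, adjusted p = 0.122) and 1 lower (Scarb1, -0.10, adjusted p = 0.271). Of the 6 Fc gamma receptor and adaptor genes 3 were lower, Fcgrt by -0.20 (adjusted p = 0.270), and Syk, the kinase downstream of these receptors, was at 0.09 (adjusted p = 0.370). In the list of 12 monocyte recruitment genes 5 were lower and 7 higher. Ccl12, a ligand of Ccr2, had 9.26 in CSD and 8.68 in VD pups (0.60, SE 0.147, adjusted p = 0.0590), and Ccr2 had 7.81 and 8.19 (-0.32, SE 0.089, adjusted p = 0.0900). The other Ccr2 ligands of the list had estimates of -0.04 (Ccl2, adjusted p = 0.946) and 0.05 (Ccl7, adjusted p = 0.915).

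Markers of other leukocytes were examined in the same fit, with 0 genes called in these lists, and their part in the values of the macrophage genes was not tested. Of all genes, 1.25% were called, 14.5% had an unadjusted p under 0.05 and 48.3% were lower in CSD pups. The 10 pan-leukocyte genes were all lower in CSD pups, 0 called and 8 with an unadjusted p under 0.05, with a median log2 fold change of -0.35. Lsp1 (-0.29, adjusted p = 0.0638) and Cd37 (-0.61, adjusted p = 0.0910) had the smallest p. The mean of the 10 genes per pup ran from 9.03 to 9.76 in CSD and from 9.53 to 10.24 in VD pups. The brightest of the 10, Coro1a, had -0.69 (adjusted p = 0.106). T cell genes were lower in 9 of 10 (median -0.36, Cd2 -0.77 with adjusted p = 0.162 and Zap70 -0.42 with adjusted p = 0.246), B cell genes in 9 of 9 (median -0.35, Cd79a -0.48 with adjusted p = 0.0993 and Blk -0.24 with adjusted p = 0.132), and dendritic cell genes in 10 of 11 (median -0.08, Irf4 -0.37 with adjusted p = 0.0809 and Itgax -0.23 with adjusted p = 0.149). Blk was above background on 5 arrays. Mean values of the T cell list ran from 7.86 to 8.74 in CSD and from 8.31 to 9.61 in VD pups. Neutrophil genes, which bear on Lyz2, were lower in 7 of 11 (median -0.02, Mpo -0.12 with adjusted p = 0.365 and Ly6g 0.13 with adjusted p = 0.725), with Ngp above background on 0 arrays. Eosinophil genes were lower in 5 of 8 (median -0.02, Ear1 -0.23, Prg2 -0.33), with Prg2 above background on 12 arrays and Epx on 0. Mast cell genes were higher in 10 of 10 (median 0.14, Tpsb2 0.48 with adjusted p = 0.111 and Cma1 0.57 with adjusted p = 0.259).

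Among the non-leukocyte lists, epithelial genes were higher in CSD pups in 8 of 10 (median 0.19, Slc26a3 0.45 with adjusted p = 0.113 and Epcam 0.17 with adjusted p = 0.257), and their mean per pup ran from 14.30 to 14.71 in CSD and from 14.13 to 14.46 in VD pups. Blood endothelial genes were lower in 9 of 9 (median -0.15), and Egfl7, a secreted protein of endothelial cells, was the single gene of these lists that was called (12.40 in CSD and 12.85 in VD pups, log2 fold change -0.41, SE 0.070, adjusted p = 0.0123). Of all genes, 1.25% were called in this fit. The call of Egfl7 was lost with litter means as samples, with males only and on slide 2 alone, where 0 of all genes were called. It was also lost with the pup numbers as a replicate block, described below, where 0 genes were called. The fold changes of Egfl7 in these fits are not given here. Lymphatic endothelial genes, which bear on Mrc1, were lower in 5 of 6 (median -0.12, Flt4 -0.15, Ccl21a -0.48). The other lists, with 0 genes called, were smooth muscle (8 of 9 lower, median -0.13, Smtn -0.19, Acta2 -0.17), fibroblasts (6 of 8 lower, median -0.07, Thy1 -0.39 with adjusted p = 0.0620, Dcn -0.18), enteric neurons and glia (3 of 9 lower, median 0.03, Sox10 -0.16, Uchl1 -0.22), fat (8 of 8 lower, median -0.24, Lep -0.08, Cfd -0.75), red blood cells (7 of 8 lower, median -0.38, Hbb-b2 -0.77, Hba-a2 -0.44), lymph node and follicle stroma (6 of 6 lower, median -0.46, Ccl21a -0.48, Ccl19 -0.79), and Paneth cells (2 of 6 lower, median 0.06, Pla2g2a 2.04 with adjusted p = 0.205, Lyz1 -0.34). Of the 6 genes of the Paneth cell list, 2 were above background on every array. Pla2g2a was above background on 9 arrays, with an SD of 2.07 in CSD pups. Fat and lymph node genes ran over a wide range within each group, from 8.26 to 11.76 in CSD and from 9.90 to 11.99 in VD pups for the mean of the fat list. The mean and the median of the log2 fold changes differed in sign for the scavenger and lectin receptors (mean 0.03), the Fc gamma receptors (mean -0.03) and the enteric neurons and glia (mean -0.01).

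**Figure D5:**
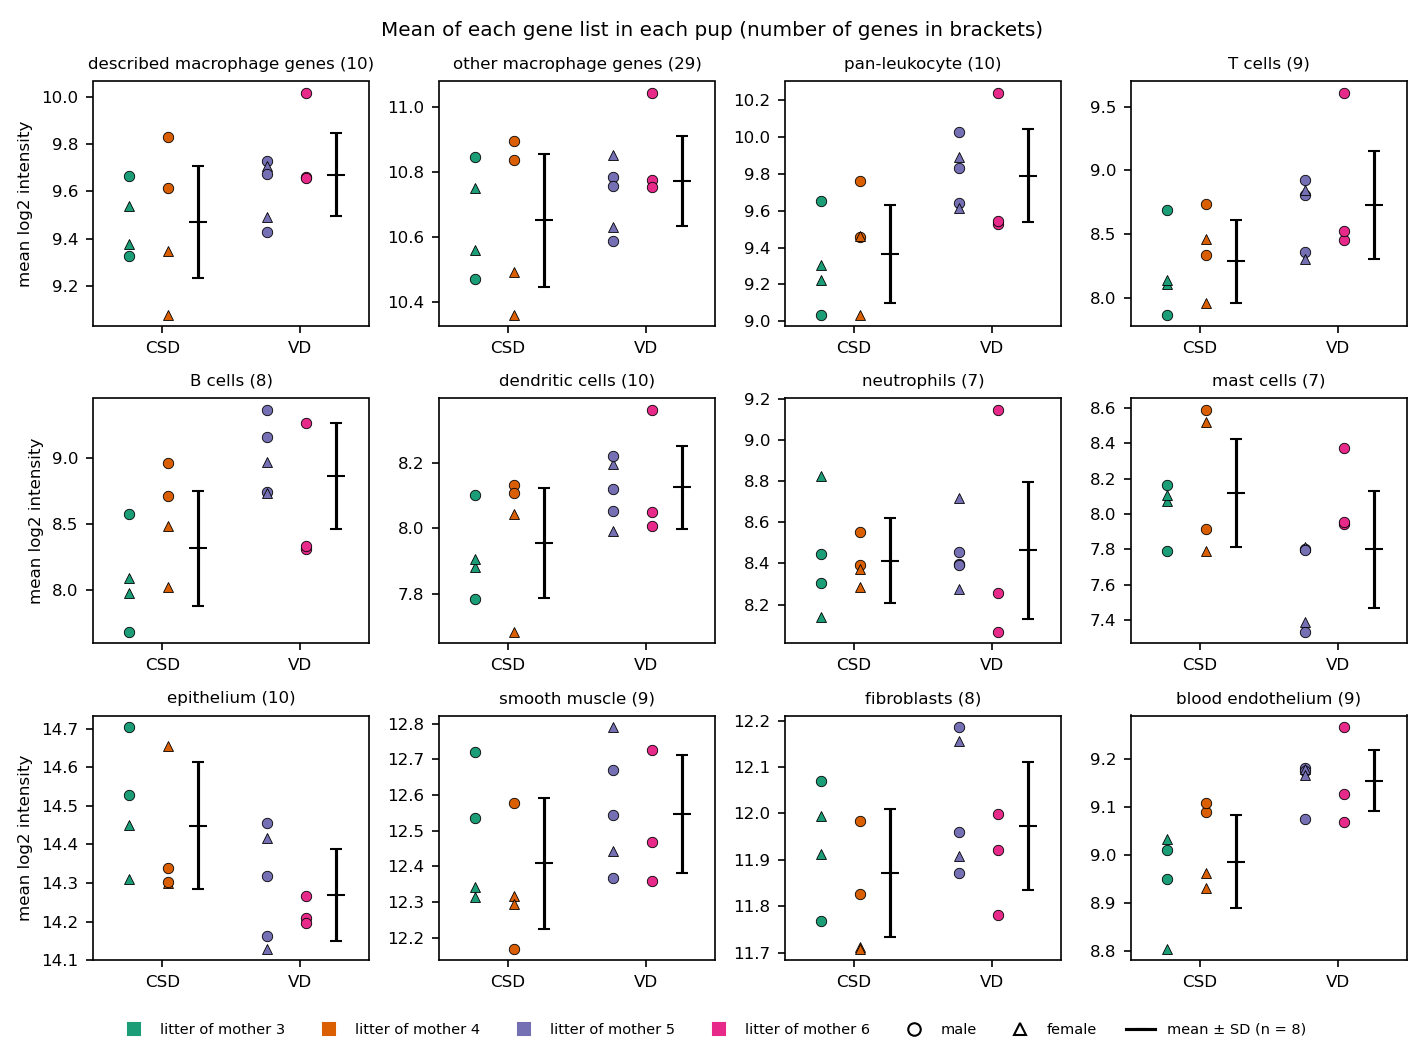
Mean log2 intensity per pup over the genes of each list that were above background on every array (their number in brackets), by delivery mode, with colour for the litter, circles for males, triangles for females and the mean ± SD (n = 8). The described macrophage genes ran from 9.07 to 9.83 in CSD and from 9.43 to 10.02 in VD pups, and VD pup 6 had the highest value of its group in 7 of these 12 panels.

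Promoters were looked up for Lyz2 and Lyz1, whose correlation was the highest given above, in the RefSeq table of GRCm38.p6, which held 8 of the 10 macrophage genes. The 100 bases before the start of the genes are shown, at chr10:117282273-117282372 for Lyz2 and chr10:117292869-117292968 for Lyz1, both on the minus strand, with the letters AGGAAG or their reverse complement CTTCCT in capitals. These letters are the core bound by ETS factors, among them PU.1 of myeloid cells.
Lyz2: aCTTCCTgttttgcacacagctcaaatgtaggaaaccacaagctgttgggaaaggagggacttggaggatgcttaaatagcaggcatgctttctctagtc
Lyz1: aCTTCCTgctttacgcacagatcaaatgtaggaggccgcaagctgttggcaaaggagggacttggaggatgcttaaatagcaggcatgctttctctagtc
Both windows were identical at 92 of 100 positions and held the letters once, and 13.8% of all promoters held them at least once in the same window. Over the 250 bases before the start, 5 of the 8 macrophage genes (C1qb, C1qc, Mrc1, Lyz2 and Fcgr1) held them on either strand, against 29.5% of 32851 promoters.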

How the data were processed

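The authors deposited the scanner output of 16 arrays (mean intensity, median local background and an intensity corrected by the scanner software per spot) and a matrix of log2 values for 27036 genes, made by them in limma (version 3.38, per the submitters' notes). The matrix served as an alternative; its values had a correlation of 0.977 with those computed here over 27022 shared genes, and it holds all 10 macrophage genes.

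From the deposited intensity, normexp background correction (offset 50; the study does not name its correction), the log2 scale and quantile normalization were applied with limma 3.58.1 in R 4.3.3. Control spots were removed, as were 65 to 205 outlier spots on each array, and 0 spots were saturated. A probe had to exceed the 5% quantile on 4 arrays or more, which left 56366 of 56605, and values were averaged by gene name. The model held delivery mode, sex and, as a random block, the mother (duplicateCorrelation, consensus correlation 0.0152), and a gene was called at a Benjamini-Hochberg adjusted p under 0.05 over all 36711 genes. With 4 litters this correlation is estimated imprecisely. On simulated data without a litter effect it was underestimated, so the p-values of the delivery comparison may be too small. By how much, with the litter effects of these data, was not tested. Litters within a delivery mode were compared with sex in the model. Group means were also compared by exact permutation tests in numpy 2.4.6, and the ranks for Spearman's rho were taken with scipy 1.17.1. Correlations used 1e+05 permutations. The number of arrays and of litters limits the precision.

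The 10 genes and the 24 lists were chosen with earlier results of these data known. The text names all 10, from each list the called genes or, with none called, those 2 whose p was smallest, the 6 genes most correlated with the mean of the 10 and of the C1q genes, and Lyz1. Adgre1, Mertk, C1s1, Coro1a, Ccl2, Ccl7, Spp1 and the genes of the other macrophage list with an unadjusted p under 0.05 were named beside these after their values were seen. A gene that this rule names is not reported here. Trac, Hbb-bs and Fdcsp, named in the lists, did not match a name on the array. Plots were drawn with matplotlib 3.10.9.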

Additional observations from a re-analysis of the deposited data

Results flagged for a closer look

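In 2 of 20 groups of 8 pups tested, a single pup lay apart from its group by Dixon's criterion, which chance alone meets in about 1 group in 20. Timd4 reached 9.24 (log2 intensity) in VD pup 6, where the gap to the next VD pup made up 0.727 of the range of the group. The same pup had the highest VD value of C1qa, C1qb, Cd68, Csf1r, Cd163, Mrc1, Lyz2 and Lyz1, and of the brighter C1qc probe. Cd163 reached 7.99 in CSD pup 6, with a gap of 0.588 of the range. For the brighter Cd163 probe alone, CSD pup 6 was the highest at 9.67, with a gap of 0.38 of the range, below the criterion.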

How the results depend on the processing

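None of the 10 genes was called between delivery modes under any of 41 alternatives with limma, with 0 to 6 of them at an unadjusted p under 0.05 (6 without sex and without VD pup 9, where 6302 and 5541 of all genes had one), and none in the 28 alternatives run for each of the comparisons of sex, interaction and litters. The median log2 fold change of the 10 lay between -0.26 and -0.07 over these alternatives, and between -0.23 and -0.13 when single pups were left out. C1qa, C1qb, C1qc, Cd68, Csf1r and Lyz2 were lower in CSD pups in all 41, with estimates nearest to 0 of -0.0325, -0.0748, -0.142, -0.12, -0.0558 and -0.222, the first 5 in the 10 pups with shared numbers and that of Lyz2 without the litter of mother 5, and the lowest adjusted p of any member was 0.0670 (C1qc without sex). Timd4 was at 0.0032 on slide 1 alone. Mrc1 turned negative with cyclic loess (-0.0052), with the deposited matrix (-0.0087), without sex (-0.0341), with litter means as samples (-0.0669), in males only (-0.00036), on slide 1 (-0.094) and without the litters of mother 3 (-0.0882) or mother 5 (-0.105), and lay between -0.0456 and 0.0698 without single pups. Cd163 turned negative with the filter for probes well above background in a group (-0.0228), the brightest probe (-0.0167), slide 1 (-0.0456) and without the litter of mother 4 (-0.152), and lay between -0.0858 and 0.0985 without single pups. Fcgr1 turned negative on slide 2 (-0.0163) and without the litter of mother 4 (-0.127), and lay between -0.0063 and 0.141 without single pups. The cause of these turns was not tested. The number of all genes called, 460, was 102 and 243 with a normexp offset of 0 and 16, 177 and 164 with the intensity corrected by the scanner (quantile normalized or minus the 75th percentile), 170 with the deposited matrix, 992 without sex, 1126 at an adjusted p under 0.1, 11 on slide 1, and 0 on slide 2, with males only and with litter means as samples (3788, 3295 and 4021 with an unadjusted p under 0.05). It was 212, 138, 189 and 2265 without the litters of mothers 3, 4, 5 and 6, and 145 (without VD pup 4) to 617 without single pups. The numbers in the pups' titles are shared by 5 pups of each group, and the correlation of their deviations ran from -0.0492 to 0.215, so they were taken as names and not as pairs. With the number as a replicate block on these 10 pups 0 genes were called (4745 with an unadjusted p under 0.05), and 2 in the same pups without the block, a fit added after seeing the data, as was the fit by probe.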
